A study of Homo sapiens with 3 samples.

Results

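The 78 genes described here encode proteins of the mitochondrial ribosome, the machine inside mitochondria that translates the few messages of the mitochondrial genome. They were chosen by symbol and a minimum level, as features whose symbol is MRPL (large subunit) or MRPS (small subunit) followed by a number and whose mean level over the libraries was at least 1 CPM (the gene's UMIs per 1000000 UMIs of the library, a UMI being the barcode of 1 captured RNA molecule). All 78 matching features of 19912 in the files passed, and 12630 features passed the same minimum. The lowest member, MRPS24, stood at 0.720, 0.659 and 4.67 CPM, and no matching feature was under the minimum.

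The libraries came from HCT116 cells, a human colorectal carcinoma line, carrying a GFP-tagged histone H2B (HCT116-H2b-GFP) and grown in an organ-on-chip with a top and a bottom channel. The first group was the top channel of chips that were not stretched (-Peristalsis), the next the top channel of stretched chips (+Peristalsis, 6 days), and the last the bottom channel of stretched chips, whose cells the labels call invaded. They are named here the not stretched top, the stretched top and the stretched bottom library, and values are given in that order. In all groups, cells were taken off with 0.25% trypsin (5 min at 37 °C, 3 rounds) and selected by their GFP signal in a cell sorter. They were turned into 3′ droplet libraries, and the labels give the same cell line for every group. No unstretched bottom library was analysed here. Each group had 1 library, no difference below has a replicate check or a p-value, and all intervals are 95% intervals for counting error only.

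The cell filter left 17206, 20121 and 1951 cells and 212503735, 210814252 and 76641034 UMIs. Bottom cells were the deepest, with medians of 10964, 9384 and 40387 UMIs per cell, and mitochondrially encoded genes took a median of 9.64%, 10.4% and 4.09% of a cell's UMIs. Of the kept barcodes, 88 were shared by both top libraries, 6 by the not stretched top and the bottom library and 9 by the stretched libraries. Of 12 epithelial marker genes, 11 reached 1 CPM, with summed levels of 4722, 4707 and 5166 CPM, and EPCAM, an epithelial adhesion gene, stood at 386, 389 and 501 CPM. The markers did not move together: 8 of the 11 were higher in the bottom than in the stretched top library, as were 43.7% of features, and 3 were lower. CDH1 was among the lower ones, at 50.4, 40.4 and 25.9 CPM, as was VIL1, at 7.14, 5.18 and 1.27 CPM. The mesenchymal filament gene VIM stood at 5.94, 7.89 and 26.9 CPM. Endothelial markers summed to 128, 105 and 125 CPM, nearly all of it EGFL7. The defining endothelial genes were near 0 but higher in the bottom library, with CDH5 at 0.0329, 0.0569 and 0.744 CPM (7, 12 and 57 UMIs) and CLDN5 at 0.0047, 0 and 0.770 CPM (1, 0 and 59 UMIs). PECAM1 stood at 0.574, 0.564 and 1.74 CPM and VWF at 0.904, 0.783 and 1.54 CPM, so these 4 move with the bottom comparison described below, and their part in it was not tested. Fibroblast markers summed to 8.81, 5.69 and 4.50 CPM and leukocyte markers to 7.21, 6.46 and 5.40 CPM. The genes APOA1, APOA2, FABP1 and TTR summed to 245, 229 and 0.966 CPM, so cells high in them were nearly confined to the top libraries. Cells with fewer than 3 UMIs over these genes numbered 16720, 19625 and 1950 of the kept cells.

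Mitochondrial ribosomal proteins are encoded in the nucleus, made in the cytosol and imported, and they assemble with ribosomal RNAs made from the mitochondrial genome. The large subunit (LSU) forms peptide bonds and releases the growing chain at a tunnel exit beside the inner membrane, and the small subunit (SSU) reads the message. Some of the proteins descend from bacterial ribosomal proteins, and others occur only in mitochondria. The finished ribosome makes core subunits of the respiratory chain and of ATP synthase, so its genes are often studied beside those of oxidative phosphorylation, and their transcription has been tied to the factors NRF1, GABP (an ETS-family factor), YY1 and MYC.

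Together the members took 0.827% of UMIs in the not stretched top library, 0.843% in the stretched top library and 1.13% in the stretched bottom library. That corresponded to summed levels of 8267, 8430 and 11282 CPM. The median member stood at 80.6, 83.4 and 109.6 CPM, and 34, 35 and 44 of the 78 members reached 100 CPM. Of the 78, 74 were highest in the bottom library, and the exceptions were MRPL10, MRPL28, MRPS27 and MRPS31.

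Levels are given on the CPM scale, which counts 3′ ends and is not divided by gene length. The highest mean belonged to MRPL51, a mitochondria-specific LSU protein (chromosome 12, 6491886 to 6493841, minus strand, hg38), at 324, 321 and 448 CPM. It was followed by MRPL41, also mitochondria-specific, at 296, 344 and 436 CPM. MRPL12, the stalk protein that corresponds to bacterial L7/L12, stood at 309, 307 and 403 CPM, and 68.7% of its last 1000 exonic bases overlap AC139530.2 on the same strand, so its reads could be split. MRPS21, an SSU protein with a bacterial counterpart, stood at 251, 291 and 389 CPM, and the mitochondria-specific MRPS34 at 267, 275 and 343 CPM. These 5 genes gave 17.5%, 18.2% and 17.9% of all member UMIs, a like share in each library.

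At the other end, MRPL49 stood at 32.9, 28.5 and 51.2 CPM and MRPL30 at 15.7, 15.8 and 23.1 CPM. MRPL38, a protein of the LSU's central protuberance, stood at 9.44, 8.41 and 23.3 CPM, and MRPL53 at 4.02, 4.44 and 14.1 CPM. The 3 lowest members all share 3′ bases with another gene on the same strand. The shared part of the last 1000 exonic bases is 63.8% for MRPL38 (AC087289.3), 60.8% for MRPL53 (CCDC142) and 42.5% for MRPS24 (the readthrough gene URGCP-MRPS24), so their low levels and their ratios are uncertain. In all, 9 of 78 members shared any such bases, 7 of them over 20%.

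**Figure D1:**
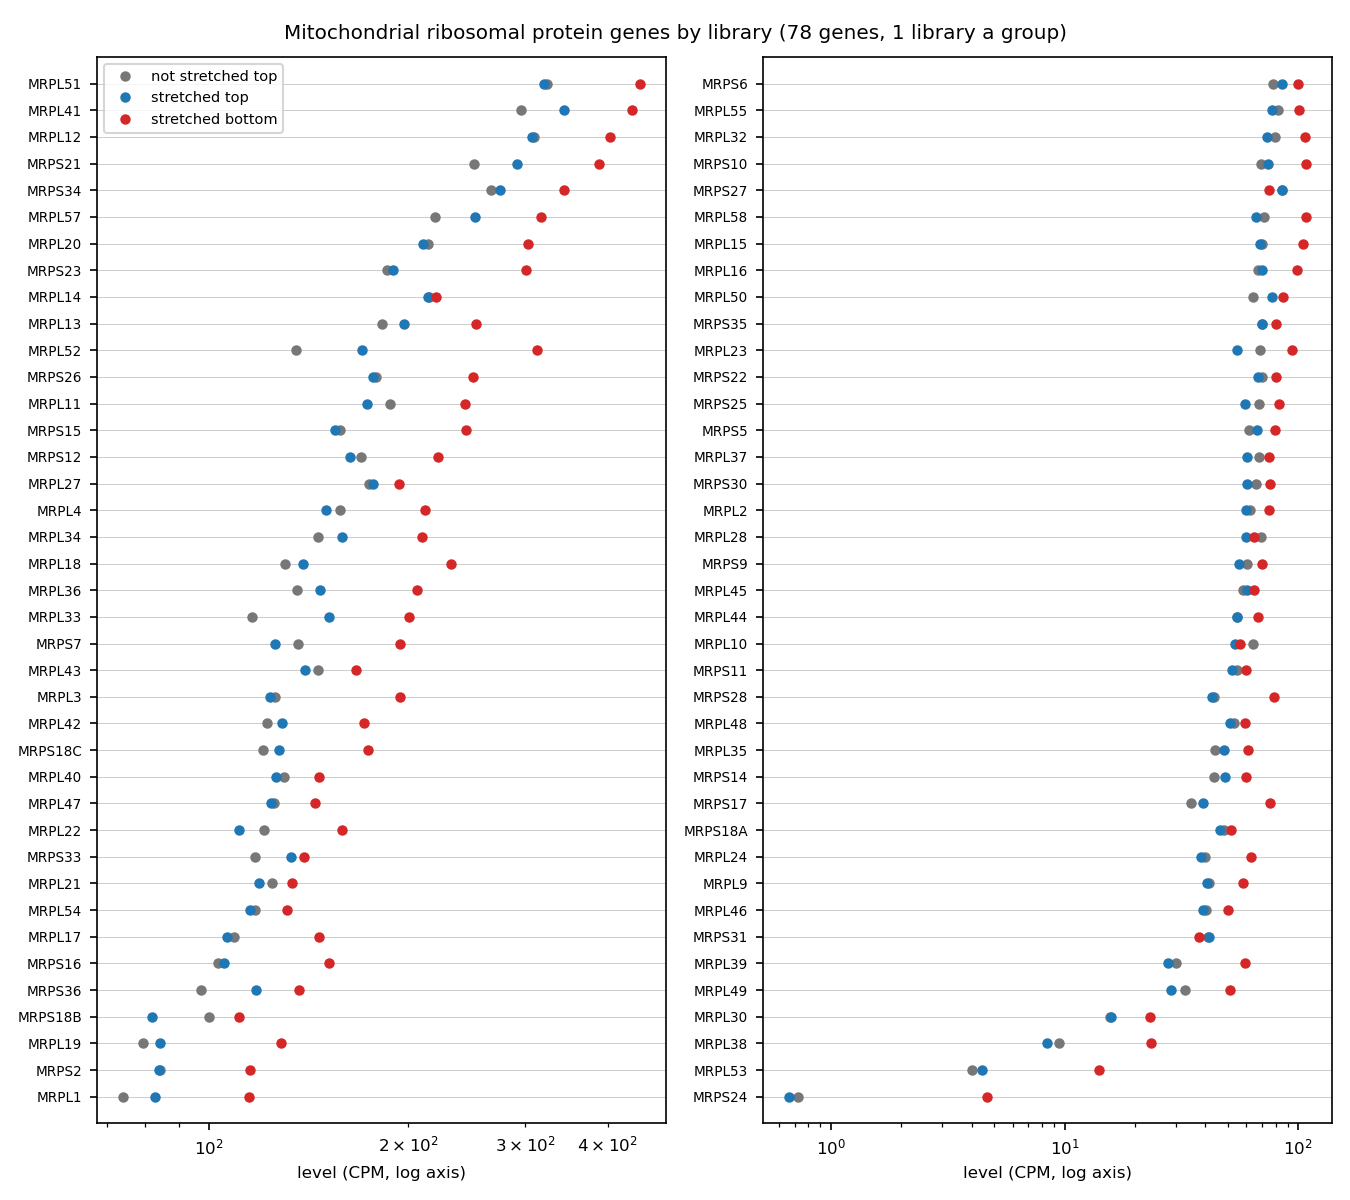
Level of each of the 78 genes in CPM (log axis, which differs between the panels) in the not stretched top, stretched top and stretched bottom libraries, with genes ordered by their mean. The red points of the bottom library lie to the right of both top libraries for 74 genes, and MRPS24, MRPL53 and MRPL38 stand apart at the low end.

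LSU members (50 genes, including MRPS30 and MRPS18A, which sit in the large subunit in spite of their symbols) summed to 5438, 5541 and 7418 CPM. SSU members (26 genes) summed to 2650, 2695 and 3626 CPM. The ratio of LSU to SSU transcripts was 2.05 (2.045 to 2.058) without stretch, 2.06 (2.050 to 2.063) with it and 2.05 (2.036 to 2.055) in the bottom channel, with overlapping intervals. Over the other settings tried, which include the single cell cycle phases described further on, it lay between 1.98 and 2.10. Both ends were phases of the not stretched top library, 1.98 in G1 and 2.10 in G2/M cells. In the stretched top library these phases had 2.01 and 2.09, and in the bottom library 1.99 and 2.06. In small groups of bottom cells it was lower, at 1.84 and 1.69 in those with 10 to 15% and 15 to 20% mitochondrially encoded UMIs and 1.86 in those of 10000 to 20000 UMIs. MRPL55 and MRPS36 were placed in neither subunit. MRPS36 is now known mainly as KGD4, a subunit of the 2-oxoglutarate dehydrogenase complex, and stood at 97.2, 117 and 137 CPM.

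The promoters of members were searched for short sequences bound by 3 of the factors named above, NRF1, GABP and YY1. SP1 letters and the TATA box were added, and no sequence for MYC was searched. RefSeq promoters (GRCh38.p14, 250 bases before to 50 after the start) were found for 69 of 78 members, with 85 promoters in all. Both strands were searched for GCATGCGC (NRF1), CCGGAAGT (ETS factors, GABP among them), AAGATGGCG (YY1), GGGCGG (SP1) and TATAAA (the TATA box), and matches of different motifs may overlap. The YY1 letters occurred in 13 of 69 member genes (18.8%), against 2.14% of 27305 genes with a promoter and 4.79% of the 9907 of them that reached 1 CPM. The ETS letters occurred in 12 members (17.4%, against 4.95% and 10.1%) and the NRF1 letters in 6 (8.70%, against 3.68% and 6.39%). At least 1 of these 3 motifs was present in 25 members (36.2%), against 9.95% of all and 19.4% of expressed genes. SP1 letters were in 60.9% of members, against 48.3% of all and 78.1% of expressed genes, and TATAAA was in 3 members (4.35%), against 14.0% of all and 8.27% of expressed genes. A match is a string of letters, not a measured binding site.

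The 250 bases upstream of the start are shown for 3 members, picked after the matches were seen as an example of several matches in 1 window: MRPL52 has letters of all 3 factors, MRPL17 has 3 NRF1 matches and MRPL27 has 2 ETS matches, as MRPS22 also has. Capitals mark the matches, and positions are counted in bases before the start.
MRPL52, chr14:22829637-22829886, plus strand: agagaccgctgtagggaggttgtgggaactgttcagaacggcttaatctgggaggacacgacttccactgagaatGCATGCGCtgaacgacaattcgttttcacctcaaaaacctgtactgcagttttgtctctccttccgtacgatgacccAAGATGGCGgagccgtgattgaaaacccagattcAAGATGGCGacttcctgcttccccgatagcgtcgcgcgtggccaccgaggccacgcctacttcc
MRPL17, chr11:6683341-6683590, minus strand: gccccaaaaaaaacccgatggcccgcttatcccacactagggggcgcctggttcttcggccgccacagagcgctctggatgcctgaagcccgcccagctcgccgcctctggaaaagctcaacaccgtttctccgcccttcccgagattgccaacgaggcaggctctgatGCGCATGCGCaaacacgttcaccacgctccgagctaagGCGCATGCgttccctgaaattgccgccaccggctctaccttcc
MRPL27, chr17:50373185-50373434, minus strand: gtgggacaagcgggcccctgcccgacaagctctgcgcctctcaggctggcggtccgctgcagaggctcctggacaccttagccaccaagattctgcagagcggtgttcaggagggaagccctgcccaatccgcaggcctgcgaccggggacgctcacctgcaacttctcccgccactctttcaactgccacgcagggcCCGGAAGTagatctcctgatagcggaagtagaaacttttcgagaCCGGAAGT
In MRPL52 the NRF1 letters begin 175 bases and the YY1 letters 98 and 64 bases before the start, and an ETS match that begins 6 bases before the start runs past the printed end and is left in lower case. In MRPL17 a match on each strand overlaps 81 and 79 bases before the start, and the other lies at 43. In MRPL27 the ETS letters begin 52 and 8 bases before the start. These 3 genes differed in the bottom library: their log2 ratios to the stretched top, described further on, were 0.87 for MRPL52, 0.46 for MRPL17 and 0.13 for MRPL27.

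Comparing the top channels, stretched against not stretched, asked what stretch does to the cells that remain in the top channel. Mitochondrial ribosomal protein genes differed little in sum. Their summed level was 8430 against 8267 CPM, a ratio of 1.02 (1.018 to 1.022). A difference of at least 1.5-fold on the log2 scale with 1 CPM added, among genes of at least 10 CPM in either library, was the threshold for calling a gene higher or lower. With stretch, 0 of 75 members were higher and 0 were lower, where 0.175% of all 9119 features over that minimum were higher and 0.592% lower. The median member had a log2 ratio of −0.02 and the median of all features over 1 CPM was −0.17, while 72 of 78 members lay above that feature median. Because most features lay below 0, TMM scaling, which centres the features (median −0.00), moved the members' median to 0.16 (still 0 members past the threshold, where 0.785% of features were higher and 0.112% lower), so whether the members as a group lay above or below 0 depended on the scaling. By total counts 33 of 78 members (42.3%) lay above 0, against 16.7% of features.

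Of the 6 members at the upper end, 3 (MRPL52, MRPL50 and MRPL41) encode mitochondria-specific LSU proteins. MRPL33, the counterpart of bacterial L33, stood at 116 CPM without and 152 CPM with stretch, 1.31-fold higher (1.29 to 1.33). Of its last 1000 exonic bases, 32.4% overlap BABAM2. MRPL52 stood at 135 and 170 CPM, 1.26-fold higher (1.24 to 1.28), and shares no 3′ bases with another gene. MRPS36 was 1.21-fold, MRPL50 (64.3 and 77.4 CPM) 1.20-fold, and MRPL41 and MRPS21 each 1.16-fold higher. All 6 were above 0 under every one of the 17 other settings tried for single members.

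At the lower end stood MRPL23, a tunnel exit protein, at 68.5 CPM without and 54.7 CPM with stretch, 1.253-fold lower (1.222 to 1.284). MRPS18B stood at 99.8 and 82.0 CPM, 1.22-fold lower (1.19 to 1.24), and the stalk protein gene MRPL10 at 63.9 and 53.6 CPM, 1.19-fold lower (1.16 to 1.22). MRPL28 was 1.16-fold lower, and MRPS25 and MRPL49 were each 1.15-fold lower. These 6 were the only members below 0 under all 17 settings, beside 25 that were above 0 under all of them. None of these differences reached 1.5-fold, under any setting.

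By structural class, the median log2 ratio in this comparison was −0.02 for LSU proteins with a bacterial counterpart (29 genes), −0.04 for mitochondria-specific LSU proteins (21), 0.01 for SSU proteins with a bacterial counterpart (16) and 0.00 for mitochondria-specific SSU proteins (10). It was −0.12 for the stalk (MRPL10, MRPL11, MRPL12), −0.04 for the 6 proteins around the tunnel exit and −0.04 for the 7 of the central protuberance. The stalk genes, all 3 below 0, had a summed ratio of 0.952 (0.944 to 0.960), and the tunnel exit genes, 5 of 6 below 0, one of 0.947 (0.939 to 0.955), beside 1.02 for all members. The central protuberance had 0.996 (0.989 to 1.004). Of all features, 10525 of 12630 lay below 0 in this comparison, so the counts below 0 do not set the stalk or the tunnel exit apart. With TMM scaling the medians of these parts were above 0, at 0.06, 0.13 and 0.13, so their direction depended on the scaling.

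**Figure D2:**
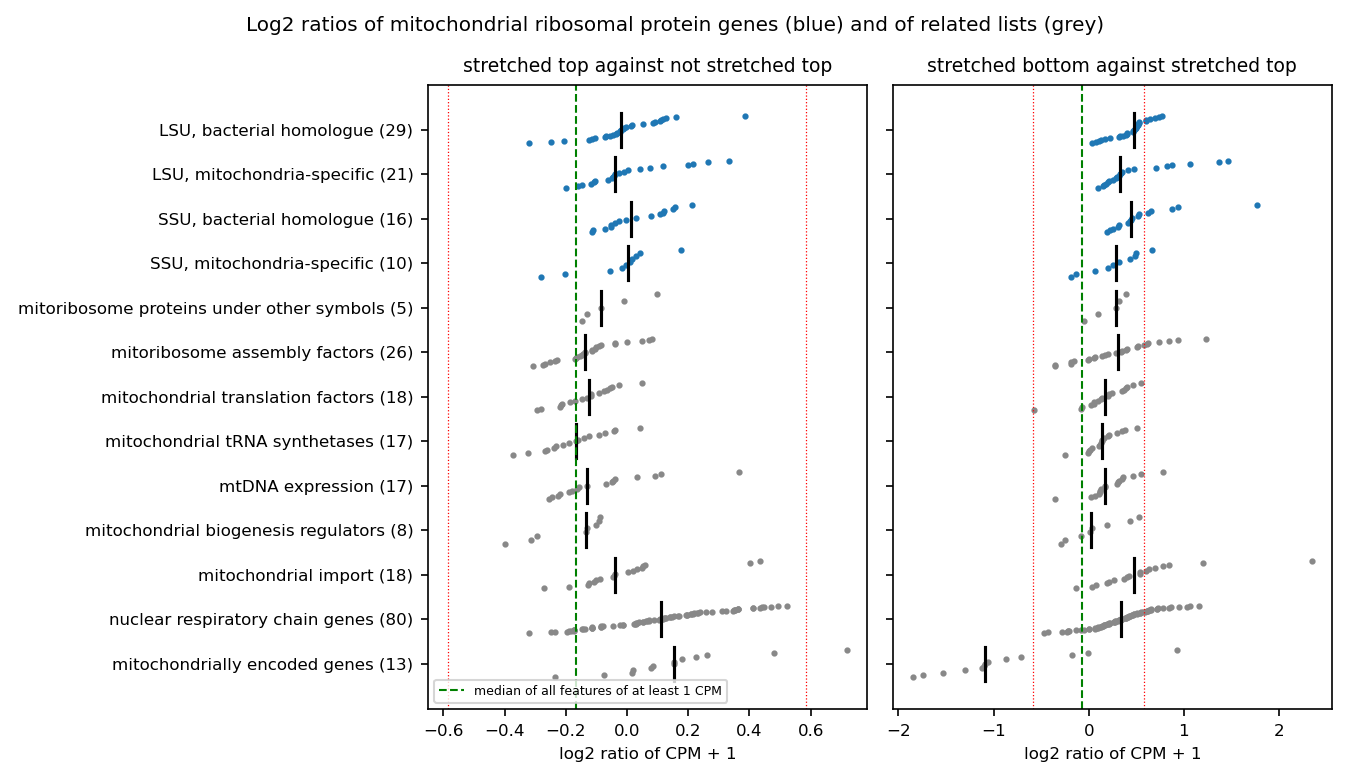
Log2 ratio of CPM + 1 for each gene of the 4 classes of members (blue, 76 genes; MRPL55 and MRPS36 are not shown) and of related lists (grey), for stretched top against not stretched top (left) and stretched bottom against stretched top (right; the axes differ). Black bars are list medians, the green dashed line is the median of all features of at least 1 CPM (−0.17 and −0.07), and red dotted lines mark 1.5-fold; blue points lie within the red lines on the left and mostly above 0 on the right.

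Comparing the channels of stretched chips, bottom against top, asked how the cells that had reached the bottom channel differed from those left above. The stretched top library enters both comparisons, so their ratios are not independent. Here the members were higher nearly throughout. Their summed level was 11282 against 8430 CPM, a ratio of 1.34 (1.335 to 1.342). The level minimum was met by 77 members, of which 17 (22.1%) were past the threshold upwards and 0 downwards, where 7.93% of all 8870 such features were higher and 11% lower. Of the 17, MRPL53 and MRPL38 met the minimum only through the bottom library, where they are high, so they could enter only as higher. Where the minimum had to be met in the stretched top library, a rule added after seeing the data, 15 of 75 members were higher, beside 7.15% of features. The share of features depended on their level. With a minimum of 50 CPM in either library, 15 of 73 members (20.5%) were higher and 0 lower, beside 13.2% and 6.95% of features, so the members stood out less. The median member had a log2 ratio of 0.41 and the median feature −0.07, and 76 of 78 members lay above 0, against 43.7% of features. With TMM scaling 20 members were higher and 0 lower, where 10.3% and 9.12% of features were, and the median was 0.48. Depth and mitochondrial share moved with this contrast, as given above, and so did the mix of cell cycle phases. The counts and ratios within matched cells are set out further on.

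The members past the threshold came from both subunits. Among LSU proteins with a bacterial counterpart 6 of 29 were higher (median log2 ratio 0.48), and among mitochondria-specific LSU proteins 6 of 21 (0.33). The latter 6 include MRPL53 and MRPL38, which met the minimum only through the bottom library. Among SSU proteins with a bacterial counterpart 4 of 15 were higher (median of all 16, 0.45), and among mitochondria-specific SSU proteins 1 of 10 (0.29). Of all features 7.93% were higher, near the share of the last class, and each class holds few genes. Quartiles of the classes overlapped, from 0.33 and 0.52 in the first to 0.10 and 0.47 in the last.

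Of the mitochondria-specific LSU proteins, MRPL39 stood at 27.7 CPM in the stretched top and 58.9 CPM in the stretched bottom library, 2.13-fold higher (2.05 to 2.21). Its not stretched top value was 29.9 CPM, so the bottom library alone was high. MRPL52, whose promoter is printed above, stood at 170 and 313 CPM, 1.84-fold higher (1.81 to 1.87). With 135 CPM in the not stretched top library, it was higher in the stretched than in the unstretched top and higher again in the bottom library. MRPL49 stood at 28.5 and 51.2 CPM, 1.796-fold higher (1.725 to 1.870). MRPL58, a peptidyl-tRNA hydrolase built into the ribosome that can rescue stalled ribosomes, stood at 65.9 and 108 CPM, 1.64-fold higher (1.59 to 1.68). MRPL53 was 3.16-fold (2.90 to 3.46) and MRPL38 2.77-fold higher (2.60 to 2.96), both with the shared 3′ bases named above.

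Of the LSU proteins with a bacterial counterpart, MRPL23 stood at 54.7 and 94.3 CPM, 1.72-fold higher (1.67 to 1.77), the highest ratio of the tunnel exit group. It had the lowest of that group between the top channels, and its low stretched top value enters both. MRPL18, a protein of the central protuberance, stood at 139 and 232 CPM, 1.67-fold higher (1.64 to 1.70). MRPL24, another protein near the tunnel exit, stood at 38.4 and 62.7 CPM, 1.63-fold higher (1.57 to 1.69). MRPL3 stood at 124 and 194 CPM (1.57-fold), MRPL15 at 68.5 and 105 CPM (1.53-fold) and MRPL19 at 84.3 and 129 CPM (1.53-fold). These last 3 lay close to the threshold.

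Of the SSU proteins, MRPS17, the counterpart of bacterial S17, stood at 38.95 and 75.6 CPM, 1.94-fold higher (1.88 to 2.01). MRPS28 stood at 42.6 and 79.1 CPM, 1.86-fold higher (1.799 to 1.920), with 40.3% of its last 1000 exonic bases shared with AC036214.3. MRPS23 stood at 189 and 301 CPM (1.59-fold), MRPS15 at 155 and 244 CPM (1.58-fold) and MRPS7, a protein of the subunit's head, at 126 and 194 CPM (1.54-fold). MRPS24 had a ratio of 7.08 (5.81 to 8.68), but it was under 10 CPM in both libraries and was not counted.

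Only 2 members were lower in the bottom library, both mitochondria-specific SSU proteins, and both were below 0 under all 17 other settings. MRPS27, a pentatricopeptide repeat (RNA-binding) protein, stood at 85.4 CPM in the stretched top and 74.9 CPM in the bottom library, 1.14-fold lower (1.11 to 1.18). MRPS31 stood at 41.5 and 37.7 CPM, 1.10-fold lower (1.06 to 1.15). Next in order came MRPL14 at 214 and 220 CPM (1.03-fold higher), MRPS33 (1.04-fold), MRPL10 (1.06-fold) and MRPL45 (1.07-fold), a protein that holds the ribosome against the inner membrane. Of the 78 members, 66 lay above 0 under all settings, and the remaining 10 included these last 4.

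Members of the stalk, and of the S18 family, differed from each other. In the stalk, MRPL12 stood at 307 and 403 CPM and MRPL11 at 173 and 244 CPM, while MRPL10, which anchors the other stalk proteins, stood at 53.6 and 56.6 CPM. In the S18 family, whose 3 related proteins occupy different places in the ribosome, MRPS18C stood at 121, 127 and 174 CPM, MRPS18B at 99.8, 82.0 and 111 CPM and MRPS18A at 48.0, 46.4 and 51.6 CPM. None of these 6 genes passed 1.5-fold in either comparison.

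Of the 17 members past the threshold, 7 stayed past 1.5-fold under all 17 other settings: MRPL39, MRPS17, MRPL52, MRPL49, MRPS28, MRPL38 and MRPL53. The last 3 share 3′ bases with another gene, and MRPL38 and MRPL53 were over the minimum only in the bottom library. The other 10 were all short of it under a stricter cell filter and in cells of 20000 to 60000 UMIs, where 7 members passed under each, beside 4.01% and 4.73% of features. Without mitochondrially encoded genes in the totals 11 passed (4.86% of features), and without cytosolic ribosomal protein genes as well 9 passed (4.02%). In S cells alone 11 passed (5.29%), in G2/M cells alone 8 (4.58%), and at a 2-fold threshold 3 (1.27%), which were MRPL39 and again MRPL38 and MRPL53.

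**Figure D3:**
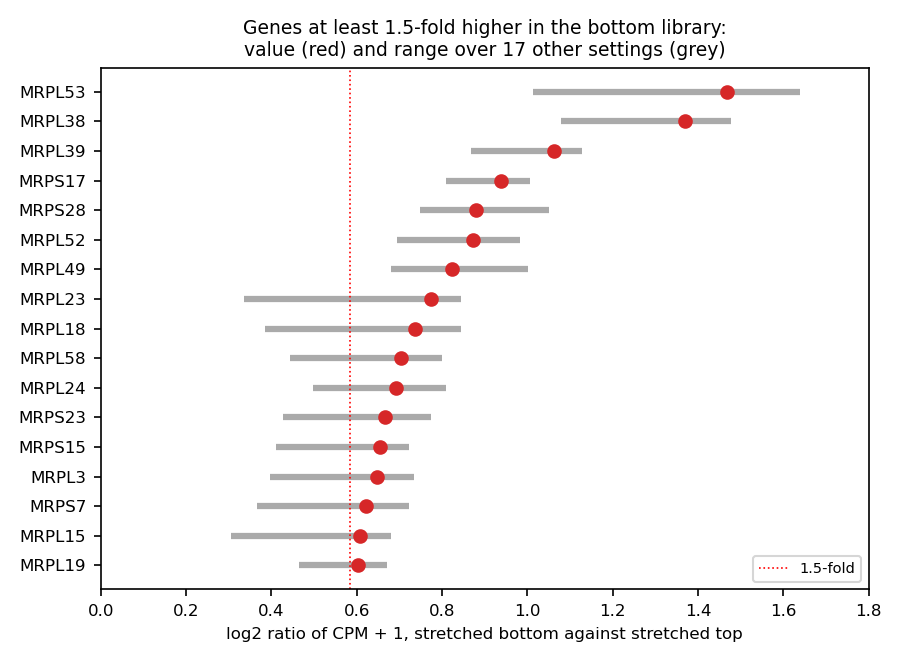
Log2 ratio of CPM + 1, stretched bottom against stretched top, for the 17 genes at least 1.5-fold higher (red points), with the range over 17 other settings (grey bars) and the 1.5-fold threshold (dotted). The bars of the upper 7 genes lie to the right of the threshold and those of the lower 10 cross it.

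The members' level moved with the state of the cells within every library. Cells were called G1, S or G2/M from marker lists that hold no member. G1 was called for 7936, 9355 and 384 cells, S for 2897, 3213 and 408 and G2/M for 4866, 6348 and 917. The bottom library thus had more G2/M than G1 cells, unlike the top libraries. In bottom against stretched top, 22 of 54 genes of the G2/M list were higher (median 0.51) and 12 of 42 of the S list (0.42). In both lists 0 were lower, where 7.93% of features were higher and 11% lower. Summed levels of the members were 6782 CPM in G1, 9002 in S and 9406 in G2/M cells of the not stretched top library. They were 7152, 8951 and 9438 CPM in the stretched top library and 9816, 11366 and 11730 CPM in the bottom library. G1 cells were thus the lowest in each library, and the step from G1 to S was larger than that from S to G2/M. In G2/M against G1 cells, all 78 members lay above 0 in each top library and 74 in the bottom library, with medians of 0.43, 0.34 and 0.24, while the median feature lay between −0.05 and −0.01. At least 1.5-fold higher were 17 of 76, 9 of 75 and 0 of 77 members, where 9.65%, 8.7% and 7.75% of features were. The mitochondrially encoded share also differed by phase: it was 111142 CPM in G1 and 82557 CPM in G2/M cells of the not stretched top library, while the members' levels per 1000000 nuclear UMIs there were 7630 and 10253.

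Single members differed in how far they followed the phase. MRPL18 stood at 90.01 CPM in G1 and 162 CPM in G2/M cells of the not stretched top library (1.798-fold), and at 99.4 and 170 CPM (1.71-fold) in the stretched top library. In the bottom library it stood at 179 and 251 CPM (1.40-fold). MRPL51 was 1.74-fold, 1.69-fold and 1.44-fold higher in G2/M cells, and MRPL11 1.65-fold, 1.66-fold and 1.47-fold. MRPS27, 1 of the 2 members lower in the bottom library, stayed near level, at 1.05-fold, 1.05-fold and 1.04-fold. Within 1 phase, the summed members of the bottom library stood above those of the stretched top library by 1.37 in G1, 1.27 in S and 1.24 in G2/M cells. For stretched top against not stretched top the same ratios were 1.05, 0.994 and 1.00.

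Within each library the members were lower in cells with a larger mitochondrially encoded share. In cells with up to 5%, 5 to 10%, 10 to 15% and 15 to 20% of such UMIs, the summed level was 10747, 8926, 7083 and 6078 CPM in the not stretched top library. It was 10865, 9234, 7595 and 6523 CPM in the stretched top and 11753, 10060, 6457 and 4773 CPM in the bottom library. Per 1000000 nuclear UMIs the order was the same, from 11155 down to 7327 in the not stretched top library. Bottom against stretched top was 1.08 (1.076 to 1.088) in the lowest band and 1.09 (1.083 to 1.096) in the next. In the bands of 10 to 15% and 15 to 20%, with 116 and 83 bottom cells, the bottom library was lower, at ratios of 0.850 and 0.732. Other gene sets were lower there too. Cytosolic ribosomal protein genes stood at 122986 and 71891 CPM, against 244280 and 227922 CPM in the stretched top library. Nuclear respiratory chain genes stood at 18876 and 14926 CPM, against 24360 and 21321 CPM. Without mitochondrially encoded genes in the totals the members' ratio over all kept cells was 1.26.

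The number of UMIs per cell gave a less regular picture. Between the top channels, stretched against not stretched, the ratio was 0.862 (0.852 to 0.873) in cells of 1000 to 5000 UMIs, 1.12 (1.113 to 1.124) at 5000 to 10000, 1.06 at 10000 to 20000 and 1.02 at 20000 to 40000 UMIs, so the shallowest cells lay on the other side of 1. For bottom against top, in cells of 1000 to 5000 UMIs the summed members stood at 6848 CPM in the stretched top and 10443 CPM in the bottom library, a ratio of 1.52. The ratio was 1.23 at 5000 to 10000 UMIs, 0.794 at 10000 to 20000 UMIs (7620 top and 156 bottom cells) and 1.07 (1.063 to 1.077) at 20000 to 40000 UMIs. At 10000 to 20000 UMIs cytosolic ribosomal protein genes were lower too, at 139051 CPM in the bottom and 235509 CPM in the stretched top library. In bottom cells of 40000 to 80000 UMIs the members stood at 11584 CPM, a depth at which the not stretched top library had 103 cells at 9897 CPM. What the difference in depth contributed to the overall ratio of 1.34 cannot be told apart from the channel with 1 library a group.

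**Figure D4:**
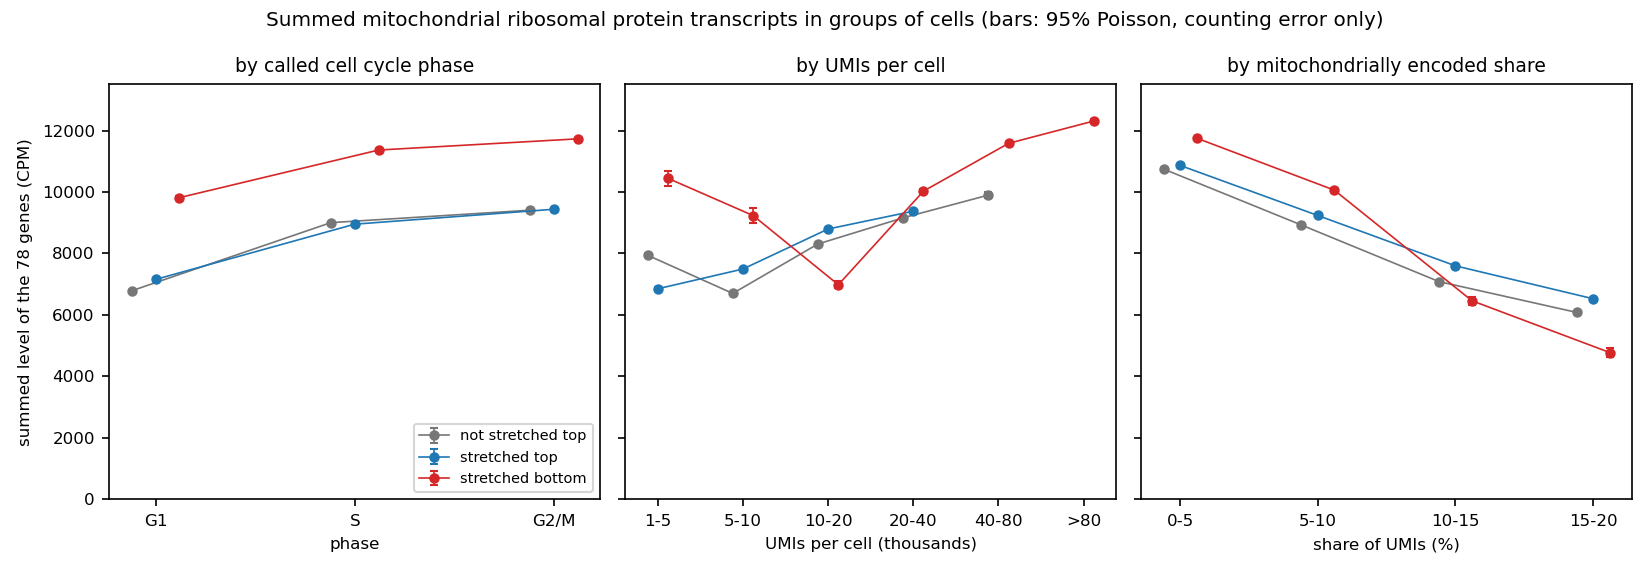
Summed level of the 78 genes in CPM within groups of cells by called phase (left), UMIs per cell in units of 1000 (middle) and mitochondrially encoded share (right), for the 3 libraries; bars are 95% Poisson intervals and are mostly smaller than the points. Within every library the level was lowest in G1 cells and, in the right panel, lower in each band of higher share, where the bottom library starts above the others and ends below them.

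Single cells were compared after each was thinned at random to 3000 UMIs, which left out 1507, 1205 and 242 shallower cells. Thinning makes the counts comparable but leaves a cell's expected share of member UMIs as it was. It does not match cells on their original depth or mitochondrial share, for which the ratios are given above. The median cell then held 22, 23 and 33 UMIs of the 78 genes, with quartiles of 17 and 29, 18 and 29, and 26 and 39. The top libraries overlapped almost wholly, while the lower quartile of bottom cells lay above the median of both top libraries. The variance over cells was 3.27, 2.84 and 3.16 times the mean, where counting error alone gives a value near 1.

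**Figure D5:**
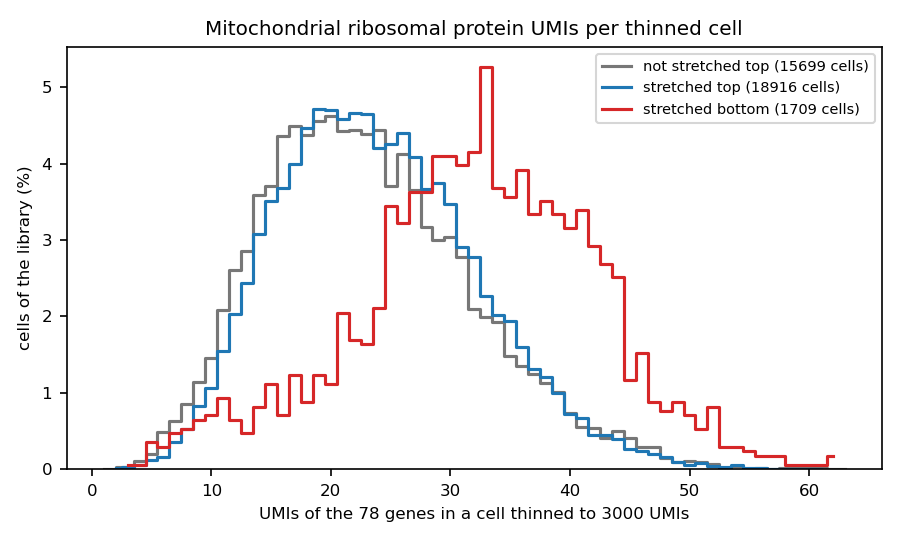
Share of cells (%) by the number of UMIs of the 78 genes in a cell thinned to 3000 UMIs, for 15699 not stretched top, 18916 stretched top and 1709 stretched bottom cells. The top libraries lie on each other with medians of 22 and 23, and the bottom library lies to the right with a median of 33.

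Genes that act with the mitochondrial ribosome differed between lists. They are described by counts and medians of bottom against stretched top, beside the features' median of −0.07 and the members' 0.41, and beside the 7.93% of features that were higher and 11% lower. Of the 5 ribosomal proteins known under other symbols, 0 passed the threshold (median log2 ratio 0.28). The most abundant were AURKAIP1, an SSU protein, at 359, 338 and 443 CPM and GADD45GIP1, an LSU protein, at 311, 309 and 376 CPM. CHCHD1, also of the SSU, stood at 108, 116 and 145 CPM. DAP3, a GTP-binding SSU protein, stood at 103, 93.3 and 99.7 CPM. PTCD3, like MRPS27 a pentatricopeptide repeat protein of the SSU, stood at 47.9, 43.7 and 42.1 CPM and was also low in the bottom library.

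Of 26 assembly factors, 24 had at least 10 CPM, 5 of these were higher, 0 were lower (7.93% and 11% of features), and the median was 0.31. NGRN, which supports the large ribosomal RNA, stood at 5.87, 6.28 and 16.1 CPM (2.57-fold against the stretched top) and met the minimum only in the bottom library. MTERF3, a factor in mitochondrial transcription and LSU assembly, stood at 22.6, 21.9 and 43.0 CPM (1.96-fold), and MPV17L2, an LSU assembly factor, at 19.7, 17.6 and 32.4 CPM (1.84-fold). The rRNA methyltransferase gene MRM2 and ERAL1, a chaperone of the small subunit's rRNA, were each 1.56-fold higher. At the lower end METTL15 stood at 106, 89.8 and 70.03 CPM and NSUN4 at 17.9, 16.5 and 12.7 CPM, both rRNA methyltransferase genes.

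The 18 translation factors (median 0.17) had 0 of 17 past the threshold. TUFM, the mitochondrial elongation factor that brings in tRNAs, stood at 313, 289 and 424 CPM, and OXA1L, the insertase that receives new chains at the inner membrane, at 65.2, 57.8 and 38.4 CPM, short of the threshold at a log2 ratio of −0.578 with 1 CPM added. Of 13 mitochondrial tRNA synthetase genes with at least 10 CPM, 0 passed (median of all 17, 0.14), with YARS2 at 26.3, 25.5 and 36.6 CPM and TARS2 at 12.4, 10.4 and 8.64 CPM at the ends. In the 17 genes of mitochondrial DNA expression (median 0.18) the only gene past it was SLIRP, a stabiliser of mitochondrial messages, at 232, 299 and 513 CPM (27.5% of its last 1000 exonic bases shared with C14orf178), and PNPT1, an exonuclease, was lowest at 72.7, 61.1 and 47.5 CPM.

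Of 18 genes of mitochondrial protein import, 7 were higher and 0 lower (7.93% and 11% of features), with a median of 0.48. TOMM5, a small subunit of the outer membrane channel, stood at 41.4, 55.1 and 128 CPM (2.32-fold), and the channel itself, TOMM40, at 130, 114 and 186 CPM (1.63-fold). In the import motor, TIMM44 stood at 38.1, 34.8 and 63.1 CPM (1.81-fold) and GRPEL1 at 89.2, 92.2 and 160 CPM (1.73-fold). PAM16 stood at 6.77, 6.53 and 37.3 CPM, over the minimum only in the bottom library, with 52.2% of its last 1000 exonic bases shared with the readthrough gene CORO7-PAM16. The regulators showed 0 of 7 past the threshold and a median of 0.03: MYC stood at 98.9, 93.0 and 135 CPM, NRF1 at 44.9, 36.5 and 34.4, YY1 at 109, 99.1 and 83.3, and GABPA at 18.5, 17.3 and 17.5 CPM. Between the top channels, 0 of the genes in these 7 lists passed 1.5-fold in either direction by total counts, where 0.175% of features were higher and 0.592% lower. With TMM scaling 1 import gene was higher, where 0.785% of features were.

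Between the top channels, nuclear genes of the respiratory chain (80 genes) had a median log2 ratio of 0.11, and the 13 mitochondrially encoded genes, which the mitochondrial ribosome translates, one of 0.15. In the bottom library 18 of 79 of the nuclear genes were higher and 0 lower, with a median of 0.34, while the median of the mitochondrially encoded genes was −1.09 and 10 of the 13 passed the threshold downwards and 1 upwards. Of all features, 7.93% were higher and 11% lower. Cytosolic ribosomal protein genes (86) had a median of −0.05 there and of 0.12 with stretch in the top channel.

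The members are spread over 21 chromosomes, with 8 each on chromosomes 1, 2 and 17, and are short genes. Their median gene length was 11937 bases, against 34695 bases for features over 1 CPM, and 47 of 78 lay in the shortest of 4 equal length groups of features, up to 14040 bases. Feature medians of bottom against stretched top ran from 0.09 in the shortest group through 0.02 and −0.10 to −0.24 in the longest. Those of the members were 0.45, 0.45, 0.31 and 0.40, the last from 5 genes, each above the feature median of its group. Members were also shorter than features within each group. Median lengths were 5358 against 7336 bases in the shortest group and 111573 against 148333 in the longest. Level was not matched, and the part of gene length in the ratios was not tested. Between the top channels the feature medians were −0.11, −0.15, −0.18 and −0.22 and the members' −0.02, −0.03, 0.01 and 0.01.

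For 29 of 78 members (37.2%), another protein-coding gene starts within 1000 bases on the opposite strand, against 17.97% of the 12626 protein-coding features over 1 CPM. MRPL46 and MRPS11 are such a pair of members, with starts 34 bases apart, and stood at 38.9 and 51.8 CPM in the stretched top and at 50.01 and 59.5 CPM in the bottom library. Of 24 partners that are not members and reached 1 CPM, 19 lay above 0 in the bottom library with a median log2 ratio of 0.20. Of all features 43.7% did, with a median of −0.07. With stretch in the top channel 6 of the 24 lay above 0 (median −0.15), near the 16.7% of all features (median −0.17). Some partners were as high as the member: PSMA2, a proteasome subunit gene 23 bases from MRPL32, stood at 184, 197 and 365 CPM, and TCP1, a chaperonin subunit gene 63 bases from MRPL18, at 178, 186 and 292 CPM. NDUFB5, a respiratory complex I gene 36 bases from MRPL47, stood at 131, 136 and 234 CPM, where MRPL47 stood at 125, 124 and 145 CPM. Others were opposite: SLC7A7, an amino acid transporter gene 59 bases from MRPL52, stood at 3.61, 2.60 and 0.652 CPM.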

How the data were processed

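Values are raw UMI counts per gene and barcode as deposited, made by the authors with Cell Ranger 7.0.0 (per the file headers) on hg38 (per the submitters' processing notes). The annotation version is not given in the sources used here. Cells were kept with at least 500 genes and 1000 UMIs and at most 20% mitochondrially encoded UMIs, which left out 34.1%, 20.1% and 44.5% of 26106, 25169 and 3513 barcodes. Doublets were not removed. UMIs were summed per library and scaled to CPM by total counts, and a count of 0 allows up to 0.0141, 0.0142 and 0.0391 CPM. Log2 ratios have 1 CPM added. Folds are CPM ratios with exact conditional binomial 95% intervals, and sums have exact Poisson intervals. With 1 library a group no test between groups was made.

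The members and lists were chosen with earlier results of these data known. Genes named with values are the 6 members at each end of each comparison, the 5 at each end of the mean level, those past 1.5-fold, the S18 family, the stalk and the extremes of each other list. MRPL17, MRPL27 and MRPL47, the promoter partners and the genes named for phase were chosen after their values were seen. Phases were called with scanpy 1.11.5 on cells thinned to 3000 UMIs. Coordinates, lengths, overlaps and paired starts come from GENCODE release 29, on the same build. edgeR 4.0.16 (R 4.3.3) gave TMM factors. Other steps ran in Python 3.11.15 with pandas 2.3.3, numpy 2.4.6, matplotlib 3.10.9 and scipy 1.17.1. Alternatives covered cell filters, depth, scaling, weights, phases, the pseudocount (0.1 or 5 CPM), the minimum (1 or 50 CPM) and a 2-fold threshold. Totals without mitochondrially encoded genes, single phases, leaving out members with shared 3′ bases and a minimum met in the reference library were added after seeing the data.

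The call step was run on simulated counts with Poisson counting error only, in which 200 genes had been changed. It held no variation between libraries or cells. At these depths the outcome follows from the folds chosen, so it checks the arithmetic of the calls and not whether they would replicate. In each comparison (8932 genes in the first, 8512 in the second) 70 of 70 genes changed 2-fold, 70 of 70 changed 4-fold, 0 of 60 changed 1.25-fold and 0 unchanged genes passed the threshold.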

Additional observations from a re-analysis of the deposited data

How the results depend on the processing

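For stretched top against not stretched top, 0 members were higher and 0 lower under all settings tried, where 0 to 0.853% of features were higher and 0.0658% to 1.38% lower. The median log2 ratio, −0.02 by total counts, was 0.16 with TMM and 0.17 with median of ratios scaling. It was 0.0183 without a cell filter, 0.00155 with the stricter filter (2000 genes, 5000 UMIs, 10% mitochondrially encoded), 0.012 in thinned cells, −0.0095 in cells of 20000 to 60000 UMIs, −0.0059 without the 5% of cells with the most UMIs, −0.026 with equal cell weights and −0.0253 with equal phase weights. It was 0.0386 with totals that leave out mitochondrially encoded and cytosolic ribosomal protein genes and −0.0052 with totals that leave out only the former. In G1, S and G2/M cells it was 0.0318, −0.0481 and −0.0358.

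For stretched bottom against stretched top, 0 members were lower under all settings, and 17 were higher by the values reported. That count was 7 with the stricter filter, 7 in cells of 20000 to 60000 UMIs, 9 with totals that leave out mitochondrially encoded and cytosolic ribosomal protein genes, 11 with totals that leave out only the former, 3 at 2-fold, 11 in S and 8 in G2/M cells. The features' shares under these settings are given above. With TMM scaling, median of ratios scaling and in G1 cells the count rose to 20, 21 and 21, where 10.3%, 10.5% and 9.97% of features were higher. The median, 0.41, stayed above 0: 0.41 without a cell filter, 0.25 with the stricter filter, 0.43 in thinned cells, 0.22 in cells of 20000 to 60000 UMIs, 0.40 without cells that hold at least 3 UMIs over APOA1, APOA2, FABP1 and TTR, 0.38 with equal cell weights and 0.37 with equal phase weights. It was 0.48 with TMM, 0.48 with median of ratios scaling, 0.28 and 0.32 with the 2 reduced totals, 0.41 with 5 CPM added, and 0.45, 0.35 and 0.30 in G1, S and G2/M cells. The cause of these differences was not tested. Leaving out members with shared 3′ bases gave 14 of 69 higher, where 7.93% of features were, and a median of 0.41. Of 1326 values of single members under other settings, 55 were short of a threshold they had passed, 12 newly passed it and 0 reversed a call. No paired analysis was possible because each group had 1 library. Depth limits MRPS24 most, which was under 10 CPM in every library.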
